A study of Mus musculus with 11 samples.

Results

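The core circadian clock genes Per1, Per2, Cry1, Cry2, Nr1d1, Nr1d2, Dbp, Tef and Clock were followed by symbol through 11 RNA-seq libraries of mouse brain cells. They are 9 of the 24411 genes in each table, and all 9 passed the filter on low counts, as did 13339 genes in total. Per1 fell from intravenous to lumbar intrathecal transplants, 3.42-fold, and was the only member past the threshold of edgeR's test in any comparison. No member passed between cell populations.

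The clock is a feedback loop in transcription that runs in most cells. CLOCK and its partner BMAL1 (gene symbol Arntl here) bind E-box sequences and switch on the Per and Cry genes, whose proteins return to the nucleus and block CLOCK and BMAL1. The same pair switches on Nr1d1 and Nr1d2, which encode the REV-ERB nuclear receptors that repress Arntl, and Dbp and Tef, which encode PAR bZIP activators that bind D-box sequences in output genes. Per1 is also known as a gene that cells switch on within a short time of growth factor, cyclic AMP or glucocorticoid signals, beside its daily rhythm. Microglia, the resident macrophages of the brain, have such a clock.

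The study transplanted blood-forming cells into mice in a competitive setting, in an Alzheimer's disease model per its title, and sorted myeloid cells from the brain. The routes were intravenous (IV), into the cerebral ventricles (ICV) and into the lumbar intrathecal space (ITL). Each route has 1 library from CD45.1 cells labelled µ, 1 from CD45.1 cells labelled TAµ and 1 from CD45.2 cells labelled µ, which gives a layout of 9 libraries. Outside it stand a CD45.2 library of the ICV route labelled PBS and a control library labelled CTR µ, for which no CD45 allele is given. CD45.1 and CD45.2 are 2 alleles of the leukocyte surface protein CD45 that let donor and host cells be told apart. The labels call all 11 microglia-like cells from brain, expand neither TAµ nor PBS, and do not say which allele is the host's. They do not say which donor cell subset was given or when, and name no transgene, age, sex, number of animals or time of day at collection, so whether collection times differed between the groups is unknown. With 1 library per combination, the 3 libraries of a route stand in for replicates in an additive model of route and population. Nothing says that they come from separate animals, so p-values measure only the spread between these libraries. For each gene, edgeR's test also draws on the spread of the other genes.

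The shallowest library, ITL CD45.2 µ, held 6090589 counts and the deepest, ICV CD45.2 µ, 21282823, and 10477 to 15492 genes had a count. Levels are given in CPM, counts scaled to a common library size after correction for composition. Within a route, values follow the order CD45.1 µ, then CD45.1 TAµ, then CD45.2 µ, and within a population the order IV, then ICV, then ITL. The 10 microglia markers summed to between 11161 and 37132 CPM and none was at 0 in any library. Sums of 4 neuron markers were at most 15.3 and those of 4 T and NK cell markers at most 11.6 CPM. Other lists reached more: 6 border macrophage markers 2646 CPM, 5 oligodendrocyte markers 1179, 5 astrocyte markers 273 and 5 endothelial and mural markers 253. The oligodendrocyte and endothelial sums were highest in ICV CD45.1 TAµ, which also had the highest Tef and Dbp. The part of other cells in those levels was not tested. The 6 neutrophil markers ranged from 0.924 CPM in IV CD45.2 µ to 12712 CPM in IV CD45.1 µ. In such bulk samples, fewer cells of a type and less RNA per cell cannot be told apart.

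The promoter windows below are shown because Per1 is the only member past the threshold of edgeR's test and because the E-box is the element through which CLOCK acts. They were read from the RefSeq table of GRCm38.p6, which holds a window for 8 of the 9 members (Per2 is the exception), and this build is not the one the reads were aligned to. Capitals mark the E-box CACGTG and the D-box TTATGCAA, each searched on both strands. The Per1 window lies at chr11:69098699-69098947 on the plus strand, just before a Per1 start site, with its E-box beginning at position -166 and its D-box at -24. It lies inside the span of the Per1 gene given below, and another Per1 window, not shown, held neither an E-box nor a D-box. The windows of Cry1 (chr10:85185089-85185134, minus strand), Tef (chr15:81811256-81811301, plus strand) and the clock repressor gene Ciart (chr3:95882260-95882359, minus strand) are cut around their E-boxes. None of the 4 overlaps an annotated exon.
Per1: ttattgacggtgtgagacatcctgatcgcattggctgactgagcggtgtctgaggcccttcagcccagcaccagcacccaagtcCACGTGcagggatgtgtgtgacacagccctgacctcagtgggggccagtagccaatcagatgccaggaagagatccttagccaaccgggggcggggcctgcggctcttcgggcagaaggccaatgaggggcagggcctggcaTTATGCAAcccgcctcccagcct
Cry1: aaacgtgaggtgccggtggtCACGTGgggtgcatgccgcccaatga
Tef: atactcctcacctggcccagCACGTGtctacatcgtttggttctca
Ciart: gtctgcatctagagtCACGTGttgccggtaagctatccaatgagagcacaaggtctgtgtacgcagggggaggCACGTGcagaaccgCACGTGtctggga
In the 250 bases before a start, 3 of the 8 members with a window held CACGTG (Per1, Cry1 and Tef), against 6.02% of 32851 windows of that length. These 8 members have 12 windows. A member was counted if any of its windows matched, while the shares of all windows count each window singly, so they are not like for like. A D-box, searched as TTATGTAA or TTATGCAA, was found in Per1 alone among these members and in 1.501% of all windows. Of the 15 other clock genes with a window, 2 held CACGTG: Ciart, with 3 E-boxes, and Bhlhe41, with 1. The full cyclic AMP element TGACGTCA was in none of these members' windows and in 1.55% of all windows, while the shorter form TGACG was in 3 of 8 members, Per1 among them, and in 17.8% of all windows. These are matches of letters, with no binding measured here.

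**Figure D1:**
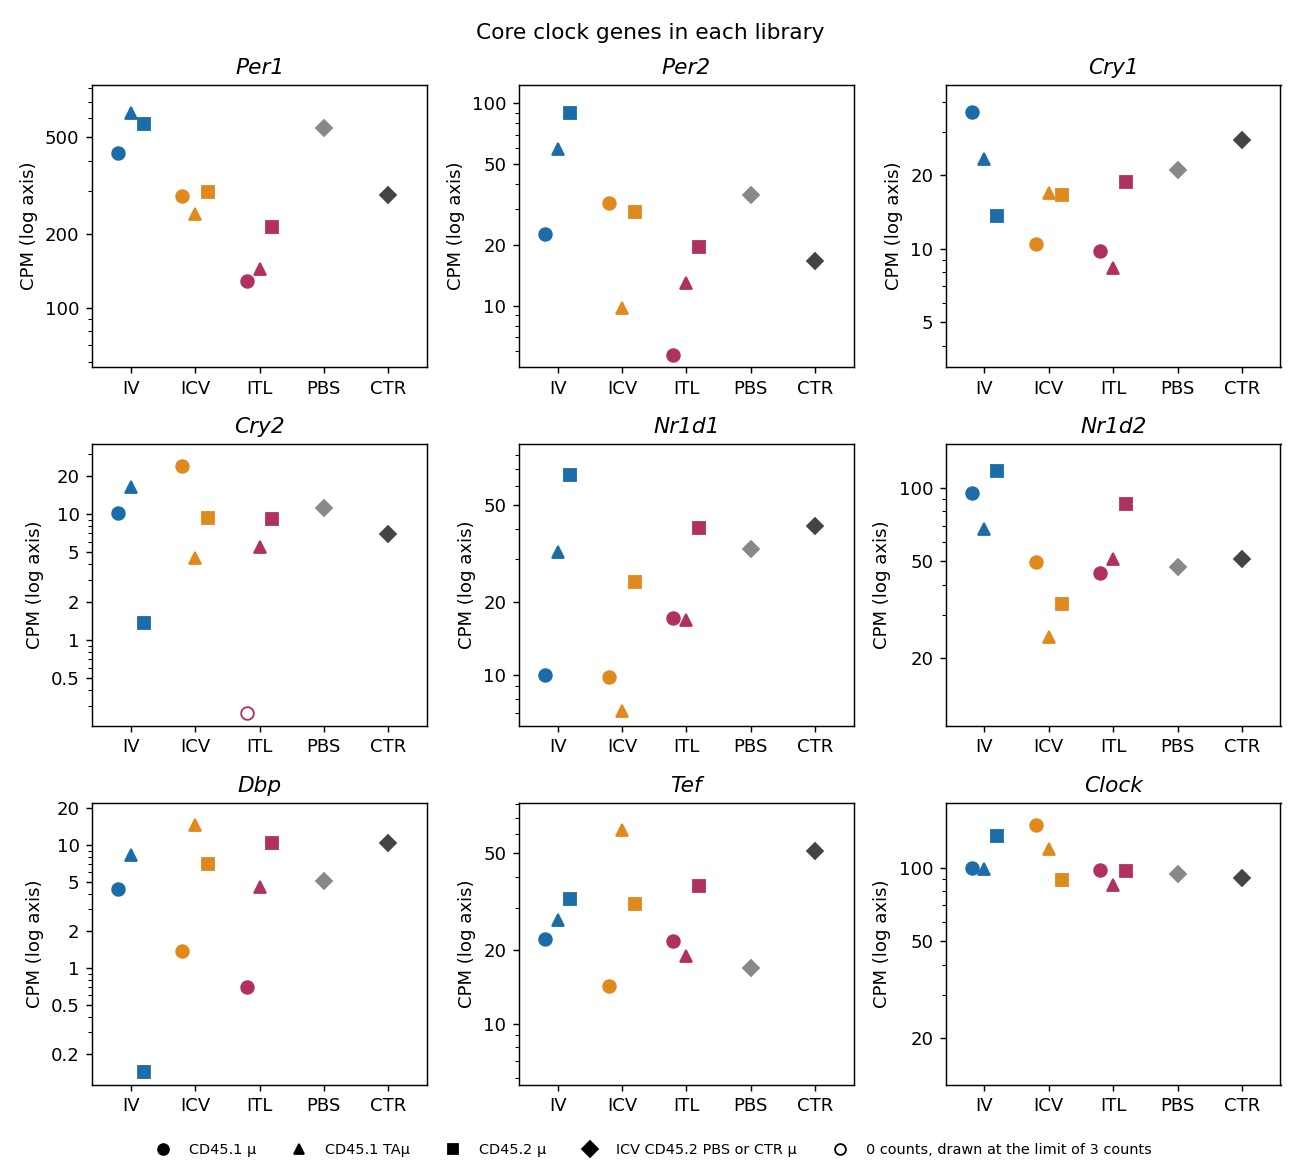
Level of each core clock gene in each library, in CPM on a log axis, by route (IV, ICV, ITL) and population (marker shape), with the PBS and CTR libraries at the right. Per1 steps down from 430-632 CPM (IV) through 243-298 (ICV) to 129-214 (ITL), while Clock stays between 84.5 and 150 CPM; the open circle for Cry2 stands for 0 counts.

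Levels between genes were compared per kilobase of exon (GENCODE M21 models), as medians over the 9 libraries. Per1 had the highest at 51.2 CPM per kb, followed by Nr1d2 (9.42), Clock (7.18), Nr1d1 (5.57), Cry1 (4.96), Per2 (3.86), Tef (3.38), Dbp (1.53) and Cry2 (1.43). Per1 ranged from 22.9 to 112 CPM per kb, so its lowest library lay above the highest value of every other member, 21.6 for Nr1d1 and for Nr1d2. The ranges of neighbours further down the order overlapped. Nr1d1 shares 263 bases of exon with Thra on the opposite strand, Dbp 539 with Sphk2, Cry2 295 with D930015M05Rik and Tef 193 with Gm17597. Whether the counting used strand is not given in the sources used here, so reads in these stretches may belong to either gene.

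Per1 and Per2 encode the period proteins, the limbs of the loop that respond to signals from outside the cell. Per1 (chr11:69095217-69109960, plus strand, GRCm38) stood at 430, 632 and 566 CPM in the IV libraries. In the ICV libraries it stood at 288, 243 and 298 CPM. In the ITL libraries it stood at 129, 144 and 214 CPM. On these CPM the 3 routes did not overlap: every IV library was above every ICV library, and every ICV library above every ITL library. Scaled to library totals alone, without the correction for composition, ICV and ITL did overlap. Per1 then stood at 213 CPM in ICV CD45.1 TAµ and at 225 CPM in ITL CD45.2 µ. Group means were 543 ± 103, 276 ± 29.4 and 162 ± 45.16 CPM (SD, n = 3 libraries each).

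ITL against IV, the fitted difference of Per1 was -1.77 ± 0.24 on the log2 scale (SE; adjusted p = 0.00428 by the quasi-likelihood test of edgeR with Benjamini-Hochberg adjustment), lower in 3 of 3 populations. It was the 1 member called, where 0.217% of all genes were called. In the test of any difference among the 3 routes, Per1 again was the 1 member called (adjusted p = 0.0118 in edgeR's test), and again 0.217% of all genes were. ICV against IV, Per1 was fitted at -0.97 ± 0.24 (adjusted p = 0.243), and ITL against ICV at -0.80 ± 0.24 (adjusted p = 0.846), neither of which passed. Among 13339 genes, 105 (0.787%) had IV above ICV above ITL in each of the 3 populations, and Per1 was the only core member among them.

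The Per1 call rested in part on single libraries. The log2 difference ITL against IV was -1.52 (adjusted p = 0.185) without IV CD45.1 TAµ, -1.66 (0.170) without ITL CD45.1 µ and -1.65 (0.120) without ITL CD45.1 TAµ, all by edgeR's test. Depth and ribosomal RNA also differed between IV and ITL. Total counts were 12938826 to 17048115 in IV and 6090589 to 10947623 in ITL, and the share of counts on the ribosomal precursor Rn45s was 8.67% to 11.9% in IV and 12.1% to 23.5% in ITL. The ICV libraries had 11139686 to 21282823 counts and 6.98% to 25.1% on Rn45s. With Rn45s left out of the totals the Per1 difference was -1.75 (adjusted p = 0.00531, edgeR). Leaving Rn45s out changed only the totals. Neither depth nor the share on Rn45s overlapped between IV and ITL, so they cannot be told apart from route there. The part in the result of what differs with them was not tested.

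Per2 (chr1:91415982-91459324, minus strand) lay lower and spread more. It stood at 22.6, 59.4 and 89.5 CPM in the IV libraries, at 32.3, 9.73 and 29.1 CPM in ICV and at 5.74, 12.996 and 19.6 CPM in ITL. All ITL libraries were below all IV libraries, and the ICV libraries overlapped both. The fitted difference ITL against IV was -2.17 ± 0.56 (adjusted p = 0.222), and ICV against IV it was -1.16 ± 0.49 (adjusted p = 0.502), both by edgeR's test and neither past the threshold. For ITL against IV, DESeq2 and limma-voom with quality weights did call Per2, at adjusted p = 0.0489 and 0.0348, where they called 1.12% and 0.802% of all genes. With each library left out, the ICV against IV difference of Per2 ran from -1.98 (without ICV CD45.1 µ) to -0.63.

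**Figure D2:**
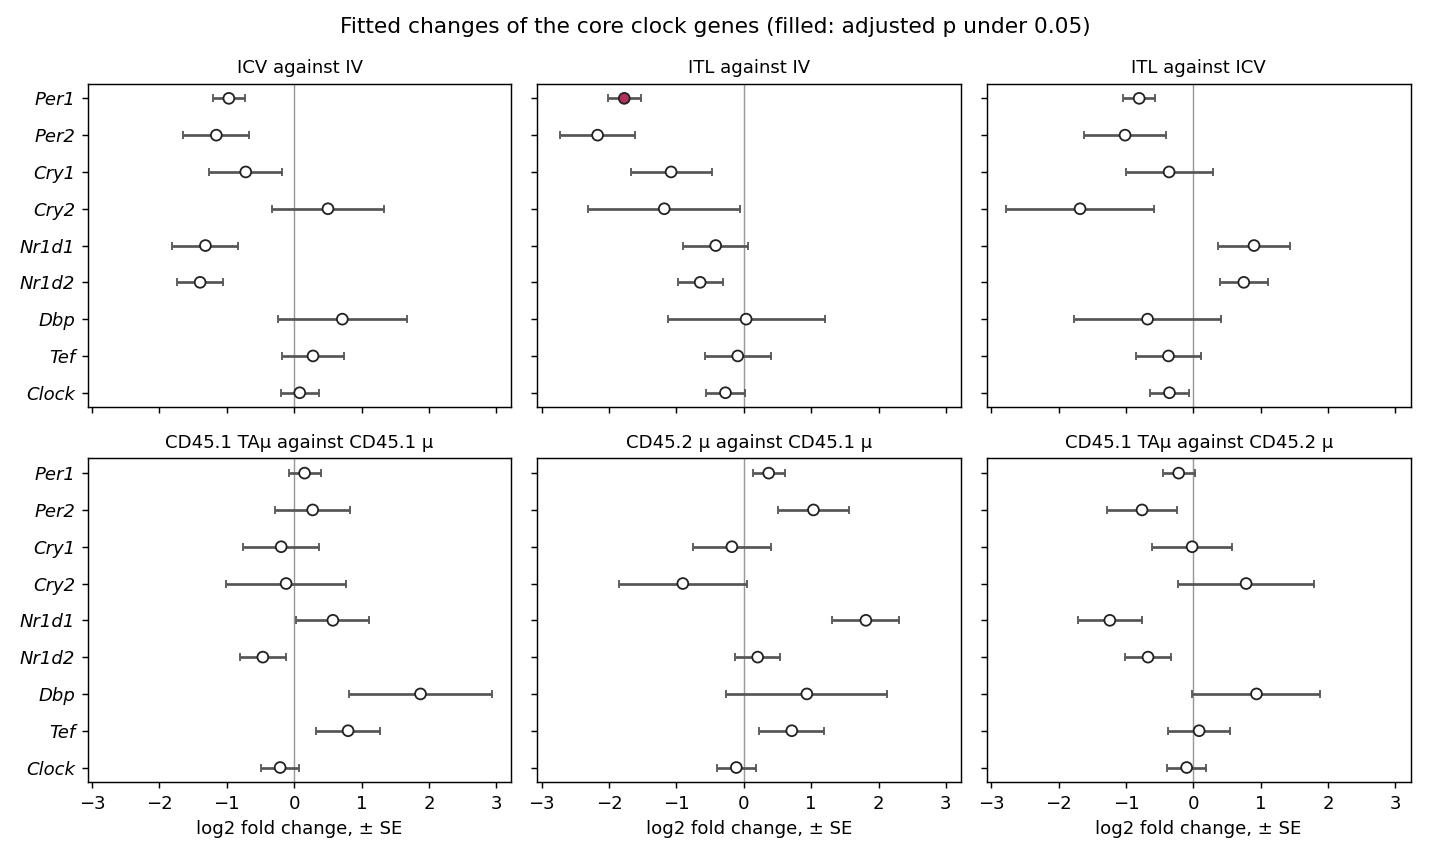
Fitted log2 fold change of each core clock gene in the 6 comparisons (points, with bars of 1 SE), from the additive model over 9 libraries. The single filled point is Per1 in ITL against IV, at -1.77; the bars of Dbp and Cry2 are the widest in each panel.

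Cry1 and Cry2 encode the cryptochromes, which carry most of the repression of CLOCK and BMAL1. Cry1 (chr10:85131700-85185064, minus strand) stood at 36.4, 23.3 and 13.6 CPM in IV, 10.5, 17.0 and 16.6 CPM in ICV and 9.74, 8.29 and 18.9 CPM in ITL. Its lowest IV library lay inside the range of the other routes. Cry2 (chr2:92403646-92434043, minus strand) stood at 10.1, 16.4 and 1.35 CPM in IV, at 23.9, 4.48 and 9.26 CPM in ICV and at 5.49 and 9.04 CPM in ITL CD45.1 TAµ and ITL CD45.2 µ. In ITL CD45.1 µ Cry2 had 0 counts, which allows up to 0.261 CPM (3 counts of the total, for counting error only). Groups overlapped in every comparison of routes or populations for both cryptochromes, and neither reached an unadjusted p of 0.05 in edgeR's test in any comparison.

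Nr1d1 and Nr1d2 encode REV-ERB alpha and beta, repressors that close the loop on Arntl. Nr1d2 (chr14:18204054-18239127, minus strand) stood at 95.0, 67.9 and 117 CPM in IV, 49.4, 24.3 and 33.2 CPM in ICV and 44.7, 51.0 and 86.0 CPM in ITL. Every ICV library was below every IV library, with ITL overlapping both. The fitted difference ICV against IV was -1.40 ± 0.34 (adjusted p = 0.243 in edgeR's test). DESeq2 called this difference, at adjusted p = 0.0489.

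Nr1d1 (chr11:98767932-98775333, minus strand) followed population more than route. In CD45.2 µ cells it stood at 66.5, 24.1 and 40.4 CPM. In CD45.1 µ cells it stood at 9.97, 9.85 and 17.1 CPM, and in CD45.1 TAµ cells at 32.2, 7.15 and 16.9 CPM. All CD45.2 µ libraries were above all CD45.1 µ libraries, with means of 43.7 ± 21.4 and 12.3 ± 4.17 CPM (SD, n = 3 libraries each). The fitted difference CD45.2 µ against CD45.1 µ was 1.81 ± 0.50 on the log2 scale (adjusted p = 0.472 in edgeR's test), higher in 3 of 3 routes but not past the threshold, and was 1.204 without IV CD45.1 µ. CD45.1 TAµ against CD45.2 µ it was -1.24 ± 0.47 (adjusted p = 0.550), and ICV against IV -1.32 ± 0.49 (adjusted p = 0.466), again by edgeR's test.

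Dbp and Tef encode the PAR bZIP activators of clock output. Dbp (chr7:45705088-45710203, plus strand) was low. It stood at 4.43, 1.38 and 0.696 CPM in CD45.1 µ, at 8.30, 14.7 and 4.59 CPM in CD45.1 TAµ, and at 0.142, 7.01 and 10.4 CPM in CD45.2 µ, where the IV value is 2 counts. All TAµ libraries lay above all CD45.1 µ libraries, by a narrow gap (4.59 against 4.43 CPM). Scaled to library totals alone, the groups overlapped, with 4.31 CPM in ITL CD45.1 TAµ and 4.46 CPM in IV CD45.1 µ. The fitted difference of 1.87 ± 1.06 (adjusted p = 0.874 in edgeR's test) had the smallest p of any core gene in that comparison. It was 3.51 without IV CD45.1 µ and 1.27 without ICV CD45.1 µ.

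Tef (chr15:81802421-81826863, plus strand) stood at 22.3, 14.2 and 21.9 CPM in CD45.1 µ, at 26.6, 62.6 and 18.9 CPM in CD45.1 TAµ and at 32.6, 30.9 and 36.8 CPM in CD45.2 µ. All CD45.2 µ libraries were above all CD45.1 µ libraries. The difference in means was 33.4 ± 3.03 against 19.5 ± 4.56 CPM (SD, n = 3 libraries each), and the fitted 0.71 ± 0.48 on the log2 scale did not pass (adjusted p = 0.663 in edgeR's test).

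Clock (chr5:76209868-76304792, minus strand), the activator, had the smallest spread relative to its mean among the members, 108 ± 22.1 CPM (SD over the 9 libraries). It stood at 99.9, 98.6 and 135 CPM in IV, at 150, 120 and 89.2 CPM in ICV and at 98.1, 84.5 and 96.6 CPM in ITL. ITL lay below IV without overlap, by a gap of under 1 CPM (98.1 against 98.6). Scaled to library totals alone, the 2 routes overlapped, with 103 CPM in ITL CD45.1 µ and 100 CPM in IV CD45.1 µ. Its fitted differences ran from -0.35 to 0.08 on the log2 scale over the 6 comparisons. Arntl, the gene of its partner BMAL1, stood at 18.8 to 44.6 CPM in the 9 libraries with the IV and ITL ranges overlapping, and Npas2, which encodes an alternative partner of BMAL1, at no more than 0.870 CPM.

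Read as a group by route, 8 of the 9 members were fitted lower in ITL than in IV, with a median of -0.65 on the log2 scale beside 0.05 over all genes, of which 47.0% were fitted lower. At an unadjusted p under 0.05 stood 2 members (Per1 and Per2), where 5.35% of all genes did. Of the 9, 1 was called, and 3 had routes that did not overlap (Per1, Per2 and Clock), where 5.90% of all genes were lower without overlap. Scaled to library totals alone, Clock was not among them. ICV against IV, 0 members were called by edgeR, as for all genes (0%), and 2 by DESeq2, which called 1.10% of all genes. An unadjusted p under 0.05 was seen for 4 (Per1, Per2, Nr1d1 and Nr1d2), where 9.22% of all genes did. The median was -0.72 beside 0.06 over all genes, with 5 members fitted lower and 4 higher, where 46.1% of all genes were lower. Per1 and Nr1d2 were lower without overlap, where 4.49% of all genes were. ITL against ICV, 0 members were called (0% of all genes), and 1 (Per1) had an unadjusted p under 0.05, where 3.79% of all genes did. Per1 was also lower without overlap, where 5.09% of all genes were, though not when scaled to library totals alone. The last comparison had a median of -0.37 beside -0.02, and its signs were split, since 7 members were fitted lower, where 51.6% of all genes were, and Nr1d1 and Nr1d2 higher in ITL. The 3 comparisons of routes share libraries and are not independent of one another.

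By population, 0 members were called CD45.1 TAµ against CD45.1 µ, where 0.0750% of all genes were. CD45.2 µ against CD45.1 µ, 0 were called, where 0.0300% of all genes were. CD45.1 TAµ against CD45.2 µ, 0 were called, where 0.345% of all genes were. At an unadjusted p under 0.05 in edgeR's test the member counts in these comparisons were 0 (5.36% of all genes), 1 (8.79%) and 1 (6.75%), with Nr1d1 the gene both times. Groups did not overlap for 1 member (Dbp, higher) CD45.1 TAµ against CD45.1 µ, where 9.45% of all genes were higher without overlap, and for 2 (Nr1d1 and Tef, higher) CD45.2 µ against CD45.1 µ, where 5.74% were. Scaled to library totals alone, the groups of Dbp overlapped. The medians of the members were 0.15, 0.37 and -0.10 on the log2 scale, beside 0.06, -0.01 and 0.10 over all genes. In the test of any difference among the 3 populations 0 members were called, where 0.315% of all genes were, and Nr1d1 had the smallest adjusted p among them (0.322, edgeR).

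The other clock genes gave no call by edgeR in any of these comparisons. Of 20 in the tables, 18 passed the filter. Of the 18, 12 were fitted lower in ITL than in IV, where 47.0% of all genes were. Their median was -0.29 on the log2 scale, beside 0.05 over all genes. Past the threshold stood 0 (0.217% of all genes), and 2 had an unadjusted p under 0.05 in edgeR's test (5.35% of all genes). Ciart, a repressor of CLOCK and BMAL1, had the smallest p of them. It stood at 13.9, 19.4 and 49.1 CPM in IV, 14.6, 20.3 and 12.2 CPM in ICV and 0.435, 5.60 and 10.4 CPM in ITL, so that all ITL libraries were the lowest. Its fitted difference ITL against IV was -2.44 ± 0.75 (adjusted p = 0.440 in edgeR's test), and -1.82 without IV CD45.2 µ. Fbxw11, a ubiquitin ligase subunit that acts on period proteins, was fitted at -0.58 ± 0.27 in the same comparison (adjusted p = 0.914, edgeR).

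Bhlhe40, which encodes an E-box repressor, was fitted at -0.98 ± 0.44 in ICV against IV (adjusted p = 0.533, edgeR). Csnk1e, the kinase that marks period proteins for breakdown, was fitted at 0.92 ± 0.29 in CD45.2 µ against CD45.1 µ (adjusted p = 0.485) and at -0.60 ± 0.28 in CD45.1 TAµ against CD45.2 µ (adjusted p = 0.736), and its CD45.2 µ libraries lay above the others of both groups. Btrc, a second ligase subunit for period proteins, was fitted at -1.07 ± 0.45 in CD45.2 µ against CD45.1 µ (adjusted p = 0.531), and at -0.47 without ICV CD45.1 µ. Per3, the third period gene, ranged from 0 counts in IV CD45.2 µ, which allows up to 0.213 CPM, to 20.9 CPM in ITL CD45.2 µ. In the 9 libraries Hlf, the third PAR bZIP gene, ranged from 0.325 to 12.6 CPM, the D-box repressor gene Nfil3 from 31.6 to 78.8, Bhlhe41 from 187 to 318 and the REV-ERB opponent Rora from 8.41 to 36.8 CPM.

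**Figure D3:**
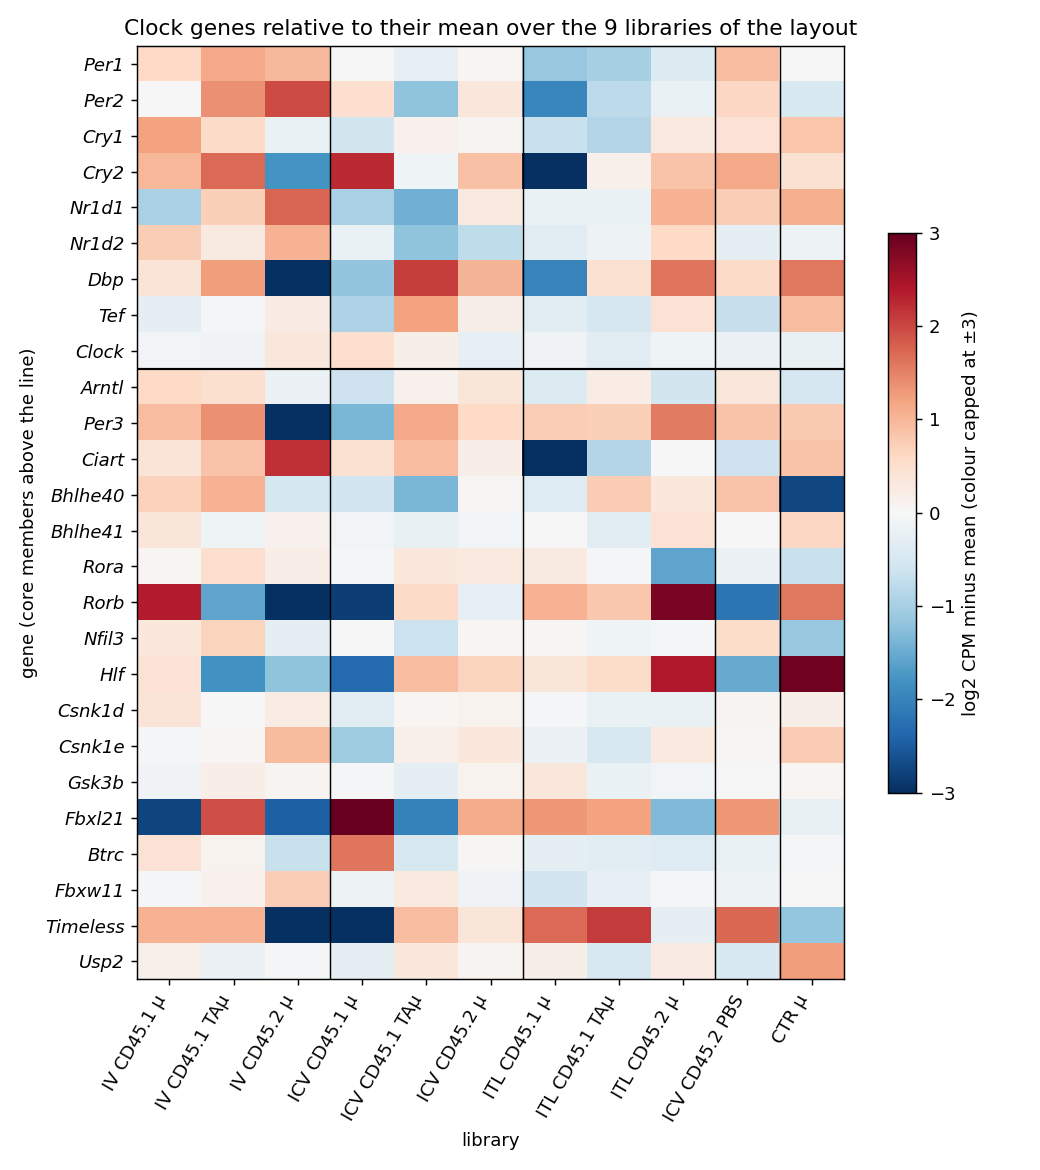
Core clock genes (above the line) and other clock genes in each of the 11 libraries, as log2 CPM minus the gene's mean over the 9 libraries of the layout, with red above and blue below that mean and colours capped at ±3. Per1 turns from red in IV to blue in ITL, while Clock stays near white throughout; Npas2, at no more than 0.870 CPM in the 9 libraries, is not drawn.

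Immediate-early genes are known to answer quickly to signals and to tissue handling. Of 12 such genes, 5 were called lower in ITL than in IV, where 0.217% of all genes were called in either direction. They included Fos (-1.47, adjusted p = 0.00838), Fosb (-2.33, adjusted p = 0.00171) and Jun (-1.37, adjusted p = 0.0168), which encode AP-1 subunits. Egr1 (-1.71, adjusted p = 0.0192) and Atf3 (-1.56, adjusted p = 0.00941) were the others, all on the log2 scale by edgeR's test. The count was 0 without IV CD45.1 TAµ or without ITL CD45.1 µ, and 1 without IV CD45.1 µ or without ITL CD45.1 TAµ. Of the 12, 10 were fitted lower, where 47.0% of all genes were. The 2 fitted higher were Nr4a1 (0.10) and Crem (0.39), named after their values were seen. The 12 genes had a median of -1.13 beside 0.05 over all genes, and their sums were 16885 to 23570 CPM in IV, 9013 to 13625 in ICV and 6021 to 10419 in ITL. Fos, Fosb, Jun and Atf3 shared with Per1 the order IV above ICV above ITL in each of the 3 populations, where 0.787% of all genes did. The part of the immediate-early state of the cells in the Per1 result was not tested.

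Glucocorticoid-responsive genes gave a mixed picture. Of 9, Dusp1, which is also an early response gene, was called lower in ITL than in IV (-1.49, adjusted p = 0.00945 in edgeR's test), and Tsc22d3, the gene of GILZ, was fitted at -1.31 (adjusted p = 0.0722). Dusp1 was the 1 called, where 0.217% of all genes were. The median of the 9 was -0.03 on the log2 scale beside 0.05 over all genes. Of the 9, 4 were fitted higher and 5 lower, where 47.0% of all genes were lower. Among cell type lists, 10 of 10 microglia markers were fitted higher in ITL than in IV (median 0.59, beside 0.05 over all genes). Of all genes, 47.0% were fitted lower. By edgeR 0 of these markers were called (0.217% of all genes) and 6 had an unadjusted p under 0.05 (5.35% of all genes). Their sums were 11720 to 18461 CPM in IV and 15771 to 22432 in ITL. Neutrophil markers were fitted lower in 6 of 6 cases (median -0.85). Of 6 border macrophage markers, 5 were fitted higher and 1 lower (median 0.69), with 0 called in either list. Of 4 monocyte markers, 3 were fitted higher and 1 lower (median 0.56), with 0 called (0.217% of all genes). The 3 choroid plexus markers summed to 4.72 to 12.2 CPM in IV, 20.0 to 1239 in ICV and 27.0 to 111 in ITL, with Folr1 at 0 to 2 counts throughout. The part of these cell types in the Per1 result was not tested.

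**Figure D4:**
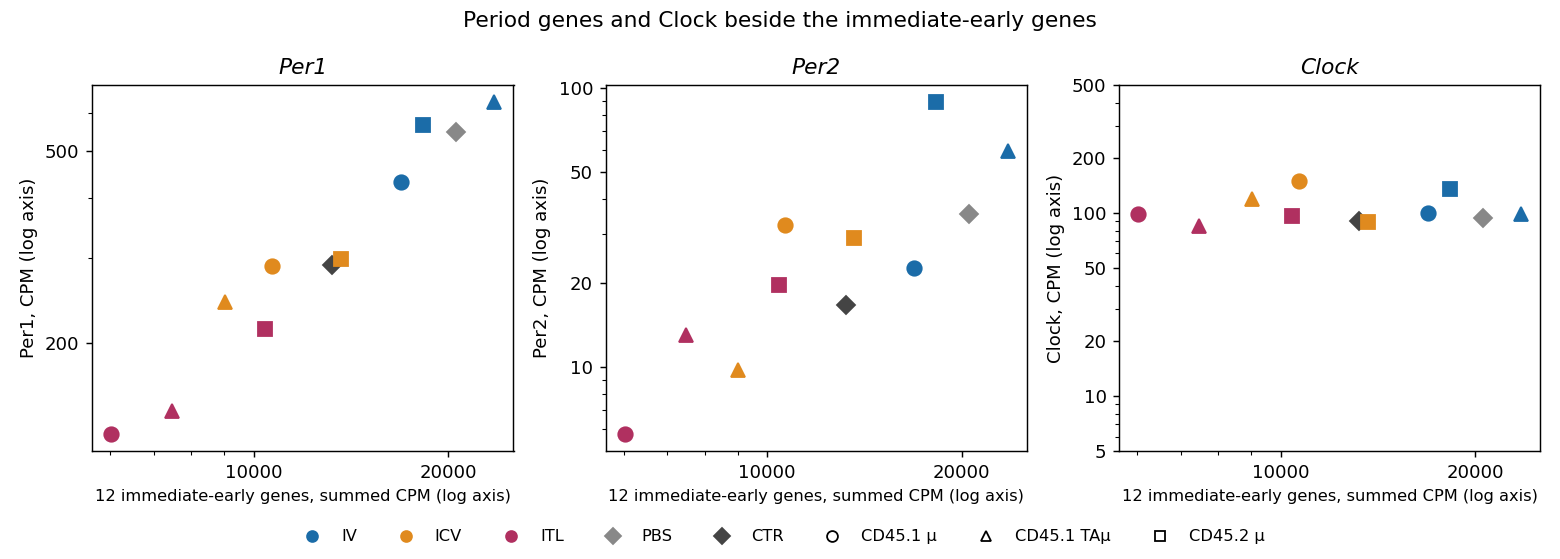
Per1, Per2 and Clock (vertical log axes, CPM) against the summed CPM of 12 immediate-early genes (horizontal log axis), 1 point per library, coloured by route. Per1 runs from 129 CPM where the sum is 6021 to 632 CPM where it is 23570, and Clock stays between 84.5 and 150 CPM over the same span.

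The single libraries outside the layout have no replicate, so no test was made. In CTR µ, 0 of the 9 core genes lay outside the range of the 9 libraries, where 13.7% of 14766 genes did. Per1 stood there at 289 CPM (exact 95% Poisson interval 280 to 299, counting error only), within the ICV range, Per2 at 16.6, Cry1 at 28.0, Cry2 at 6.91, Nr1d1 at 41.0, Nr1d2 at 51.2, Dbp at 10.4, Tef at 51.4 and Clock at 90.7 CPM. Other clock genes did stand apart in CTR µ, 5 of 19: Bhlhe41 (368 CPM), Usp2 (199 CPM), a clock output gene, and Hlf (18.4 CPM) were above every one of the 9, and Bhlhe40 (7.74 CPM) and Nfil3 (22.2 CPM) below.

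The PBS library was set beside ICV CD45.2 µ, which shares its route and allele. The count of core genes past 2-fold was 0, where 23.5% of 14766 genes were. Per1 came nearest, at 547 against 298 CPM, a ratio of 1.83 (exact 95% interval 1.78 to 1.89, counting error only), which places PBS among the IV libraries. Tef went the other way, at 17.0 against 30.9 CPM, a ratio of 0.550 (0.480 to 0.629). Per2 (35.2 against 29.1 CPM), Cry1 (20.974 against 16.6), Cry2 (11.2 against 9.26), Nr1d1 (33.0 against 24.1), Nr1d2 (47.1 against 33.2), Dbp (5.14 against 7.01) and Clock (93.7 against 89.2 CPM) differed less. The 12 immediate-early genes summed to 20528 CPM in PBS and 13625 in ICV CD45.2 µ, again in the order of Per1. The part of these genes in the Per1 ratio was not tested.

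Among themselves the members varied mostly on their own across the 11 libraries. On log2 CPM, Per1 and Per2 had a Pearson r of 0.86 (Spearman's rho 0.87), the highest of the 36 pairs, and Per1 and Cry1 had 0.59. Dbp with Clock had -0.53, the lowest, and Per1 with Nr1d2 0.41. Of 7877 other genes with enough counts, those most like Per1 were Ccnl1, a cyclin gene known for a role in splicing (r = 0.988), Nfkb2 (0.977) and Jun (0.969). Without the 2 libraries farthest from the median of Per1, these were 0.985, 0.983 and 0.945. Per2 was most like Prosc (0.967), Tcof1 (0.937) and Impact (0.925), Cry1 most like Nuak1 (0.929), Vps18 (0.892) and Txlna (0.875), and Nr1d1 most like Yy1 (0.921), Shoc2 (0.911) and Rpia (0.909).

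Nr1d2 was most like Tatdn3 (0.953), Ankra2 (0.934) and Tbc1d15 (0.929), and Tef most like Psmc6 (0.918), Ssbp3 (0.896) and C5ar2 (0.894). Clock was most like Tmem222 (0.912), Oxr1 (0.899) and Agfg1 (0.888), and Dbp most like Zfp606 (0.940), Pik3cd (0.918) and Nfu1 (0.915). Cry2 was most like Chd1l (0.965), Rictor (0.945) and Tnks1bp1 (0.940), but with its 2 farthest libraries left out these were 0.678, 0.770 and 0.511. On the same check the values were 0.712, 0.702 and 0.623 for Clock, 0.765, 0.777 and 0.684 for Dbp and 0.794, 0.792 and 0.712 for Tef. For Per2, Cry1, Nr1d1 and Nr1d2 they ran from 0.791 to 0.962. These are descriptions over 11 libraries that share depth and composition differences, chosen as the highest of many.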

How the data were processed

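The data are 11 libraries of polyadenylated RNA. Each table the authors deposited holds raw counts, 1 whole number per gene symbol. Per the submitters' processing notes, reads were aligned with STAR, version not given, to mm39/GRCm39. Annotation and strand setting of the counting: not given in the sources used here. Bmal1 is listed under Arntl. Some listed clock genes enter the counts but are not reported here by name.

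Members and lists were chosen with earlier results of these data known. The 9 libraries of the layout were fitted in edgeR 4.0.16 (R 4.3.3): filter at a minimum count of 10 and total of 15, TMM scaling, additive model of population and route, 4 residual degrees of freedom, quasi-likelihood F test, and Benjamini-Hochberg adjustment at 0.05 over 13339 genes. The SE is the log2 fold change over the square root of F. CPM are scaled by the total and the TMM factor of all 11 libraries; logarithms used a prior count of 2. The model was tested on simulated data. No 2 of the 55 library pairs were identical. Intervals cover counting error only, since reads carry no molecular identifiers. Every count column belonged to 1 library, and 0 were left over.

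Members were printed in every library. Fits were printed for core and other clock genes at an unadjusted p under 0.05, or the smallest p where no core gene had one, and 3 alike genes were named per member among genes with a mean of at least 3 log2 CPM. The Tef and Clock fits and the CTR µ genes outside the range were chosen after their values were seen. Gene models are GENCODE M21 (GRCm38). Alternatives were DESeq2 1.42.0 size factors, no TMM, Rn45s left out, no filter, 10 CPM in 3 libraries, limma-voom quality weights (limma 3.58.1), DESeq2's own test, edgeR's legacy fit, no block, all 11 libraries, 2 libraries left out together, and each library left out.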

Additional observations from a re-analysis of the deposited data

How the results depend on the processing

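The count of core genes called ITL against IV was 1. It was 2 with DESeq2 and 2 with limma-voom quality weights (Per1 and Per2 both times), and 0 to 1 with each library left out. ICV against IV the count was 0, and 2 with DESeq2 (Per1, adjusted p = 0.0110, and Nr1d2, 0.0489). For any difference among routes it was 1, with 0 under edgeR's legacy fit and 0 to 1 with each library left out. It was 0 without either of the CD45.1 libraries of IV, and without either of those of ITL. Population counts and ITL against ICV stayed at 0 in all 20 alternatives. The Per1 difference ITL against IV ran from -1.91 to -1.73 in the 11 alternatives other than leaving out 1 library, with adjusted p under the threshold in 11 of 11, and from -1.94 to -1.52 with each library left out, in 6 of 9. For CTR µ 0 to 1 members fell outside the range with a library left out (Cry1 without IV CD45.1 µ, Nr1d1 without IV CD45.2 µ, Tef without ICV CD45.1 TAµ), since the range is then set by fewer libraries. Past 2-fold in PBS there was 1 (Per1) with library totals without TMM. The Btrc difference CD45.2 µ against CD45.1 µ was 0.035 with both IV CD45.2 µ and also ICV CD45.1 µ left out, against -1.07. Under the same setting the ICV against IV differences of Per2 and Bhlhe40 were -2.18 and -1.88. Causes of these changes were not tested.

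All-gene counts moved more: ITL against IV 29 genes, with 150 in DESeq2, 107 in limma-voom, 10 in the legacy fit and 0 to 35 with each library left out; ICV against IV 0 genes, with up to 147. The immediate-early count of 5 was 1 to 8 in the other alternatives. No paired analysis was possible because the labels carry no replicate numbers that could pair animals. The additive model does compare routes within each population, and without that block the Per1 difference ITL against IV was -1.76 (adjusted p = 0.00941, edgeR). With 3 libraries a group and 4 residual degrees of freedom, the simulated data gave few calls for changes of 1 log2 unit, so a missing call does not show that a member was alike between groups.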
